A study of Mus musculus with 43 samples.

Results

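Genes of the myelin sheath, 9 in number, were followed through purified glial cells of the mouse cerebral cortex: Mbp, Mog, Mag, Mobp, Cnp, Cldn11, Mal, Opalin and Ermn. They were chosen by name and role, with earlier results of these data known, and their rows were read in every count table. All 9 were present among the 55416 genes of each of the 43 libraries. The study asked whether glial cells of mice without lymphocytes differ from those of immunocompetent littermates. The knockout mice were Rag2 -/- and carried the constitutive allele B6.Cg-Rag2tm1.1Cgn/J, which leaves no mature T or B cells. Of the 6 control mice, 4 were Rag2 +/- and 2 were Rag2 +/+, and both kinds are immunocompetent. Mice were 3 months old and of both sexes, each knockout was numbered with a littermate control as a pair, and each library came from 1 cell type of 1 mouse. Oligodendrocyte libraries came from 4 control and 4 knockout mice, those of oligodendrocyte precursor cells (OPCs) from 6 and 5, and astrocyte and microglia libraries from 6 and 6 each.

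Myelin is a stack of oligodendrocyte membrane wrapped around an axon, and its genes are switched on as an OPC differentiates. Mbp encodes myelin basic protein, which holds the cytoplasmic faces of the membrane together, and Mobp encodes a small basic protein of the same layers. The mRNAs of Mbp and Mobp are carried out into the cell's processes and translated near the sheath. Mog and Mag encode immunoglobulin-type surface proteins, on the outer face of myelin and on the membrane next to the axon. Cnp encodes an enzyme of the cytoplasmic channels in myelin and is already expressed before the sheath forms. Cldn11 encodes the claudin of myelin's tight junctions, and Mal a membrane protein of lipid-rich domains. Opalin encodes a membrane glycoprotein and Ermn an actin-binding protein, and both are markers of mature oligodendrocytes.

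In GRCm39 (GENCODE M39) the genes lie apart from each other. Mog (ENSMUSG00000076439) lies on chromosome 17 from 37321521 to 37334350 on the minus strand, Mag (ENSMUSG00000036634) on chromosome 7 from 30598464 to 30614474 on the minus strand, Mobp (ENSMUSG00000032517) on chromosome 9 from 119973770 to 120011273 on the plus strand, and Cnp (ENSMUSG00000006782) on chromosome 11 from 100465730 to 100482936 on the plus strand. Cldn11 (ENSMUSG00000037625) lies on chromosome 3 from 31203900 to 31218495 on the plus strand, Mal (ENSMUSG00000027375) on chromosome 2 from 127475142 to 127498615 on the minus strand, Opalin (ENSMUSG00000050121) on chromosome 19 from 41045254 to 41065553 on the minus strand, and Ermn (ENSMUSG00000026830) on chromosome 2 from 57934641 to 57942882 on the minus strand.

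Promoters of the members are shown because all 9 genes had the same order of levels across cell types. The 250 bases before the canonical start of each gene (GENCODE M39, build GRCm39) were searched on both strands for CTGGNAC, a motif known from enhancers of myelin genes, for ACAAAG, a core recognised by SOX factors, and for CAGCTG, an E-box. The promoter of Mbp was not analysed here. Among the other 8 members, CTGGNAC was found in Mog and Cnp, beside 16.1% of 21627 protein-coding promoters. ACAAAG was found in Mog, Mobp, Cnp and Opalin, beside 15.9% of promoters, and CAGCTG in 0 of 8, beside 11.9%. The 4 promoters with a match follow in gene orientation, with matches in capitals and with bases of annotated exons left out.
Mog (chr17:37334351-37334600, minus strand): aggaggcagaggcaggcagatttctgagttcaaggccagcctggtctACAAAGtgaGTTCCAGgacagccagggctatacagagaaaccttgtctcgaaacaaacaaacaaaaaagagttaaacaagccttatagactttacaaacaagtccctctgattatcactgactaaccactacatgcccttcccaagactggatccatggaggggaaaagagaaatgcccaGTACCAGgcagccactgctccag
Mobp (chr9:119978493-119978683, plus strand): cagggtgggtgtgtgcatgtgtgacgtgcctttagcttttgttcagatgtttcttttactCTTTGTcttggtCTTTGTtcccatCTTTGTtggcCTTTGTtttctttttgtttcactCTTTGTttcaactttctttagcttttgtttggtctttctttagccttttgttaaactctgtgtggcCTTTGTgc
Cnp (chr11:100465480-100465729, plus strand): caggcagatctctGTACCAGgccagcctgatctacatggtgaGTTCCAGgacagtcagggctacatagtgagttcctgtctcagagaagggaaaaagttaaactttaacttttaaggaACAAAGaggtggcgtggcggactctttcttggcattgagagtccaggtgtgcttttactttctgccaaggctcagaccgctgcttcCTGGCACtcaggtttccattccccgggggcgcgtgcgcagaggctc
Opalin (chr19:41065554-41065802, minus strand): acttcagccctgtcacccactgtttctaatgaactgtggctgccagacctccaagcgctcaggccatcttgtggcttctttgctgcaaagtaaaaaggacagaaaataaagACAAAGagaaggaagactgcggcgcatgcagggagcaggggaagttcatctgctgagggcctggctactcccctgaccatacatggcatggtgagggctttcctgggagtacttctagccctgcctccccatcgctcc
In the Mobp window ACAAAG occurred 7 times, always as its reverse complement CTTTGT, 6 of them in the printed stretch, and 1 of the 21627 promoters, Mobp itself, held as many. The repeats were noticed after the search. The stretch of Mobp lies within the annotated gene, upstream of its canonical transcript, and those of Mog, Cnp and Opalin lie outside annotated genes. A match of letters does not show that a factor binds there. The bases around the match GTTCCAG are much alike in Mog and Cnp. The ACAAAG match of Mog and the GTACCAG match of Cnp lie in that same stretch. Whether the stretch belongs to a repeat found at many places in the genome was not checked.

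Gene counts summed to between 6499417 and 23118497 per library (median 10447042). The libraries of a given cell type were pooled on a single lane, so lane effects cannot be told apart from those of cell type. Levels are given as CPM, counts scaled to a library total of 1000000 gene counts, and in bulk samples fewer cells of a type and less RNA per cell cannot be told apart. Mitochondrially encoded genes took 45.8% to 60.1% of counts in oligodendrocyte libraries, 22.5% to 45.1% in astrocyte, 22.4% to 36.7% in OPC and 6.75% to 11.7% in microglia libraries, and they enter the CPM. Markers of the panned types stood highest in their own libraries, as a percent of their mean CPM in oligodendrocyte libraries. Astrocyte markers stood at 1292% to 4381% in astrocyte, and at most 610% in OPC and microglia libraries. OPC markers stood at 1113% to 2118% in OPC, and at most 64.3% in astrocyte and microglia libraries. Microglia markers stood at 1718% to 3271% in microglia, and at most 142% in astrocyte and OPC libraries. The reads carry no strand mark, and the counting mode for overlapping genes was not given in the sources used here. Exons of other counted genes cover 64.6% of the exonic bases of Mog (Zfp57, on the opposite strand), 16.6% of Cnp (Dnajc7), 8.25% of Opalin (Dntt), 7.72% of Mag (Gm44662), 5.55% of Ermn (Galnt5) and 3.25% of Mobp. Counts of Mog are therefore uncertain, and those of Cnp, Opalin, Mag, Ermn and Mobp to a smaller degree. Mbp, Cldn11 and Mal share no exonic base with another gene in the tables.

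In oligodendrocyte libraries the 9 genes together took 1.79% ± 0.182 (SD, n = 8) of all gene counts. Mbp alone took 67.9% ± 3.89 of the members' counts and Mobp took 16.8% ± 0.686, and Cnp, the next, took 4.76% ± 1.27. Per kilobase of canonical transcript the order of levels was Mbp (5644 ± 595 CPM per kb), Mobp (1926 ± 216), Cnp (364 ± 107), Mal (266 ± 80.5), Mag (146 ± 46.1), Ermn (98.6 ± 22.2), Mog (84.4 ± 25.6), Cldn11 (73.3 ± 23.8) and Opalin (55.98 ± 21.97; SD, n = 8). On this scale Mbp and Mobp stood apart from each other and from all others by more than their SDs. Cnp and Mal differed by less than the SD of Cnp, and Ermn and Mog, Mog and Cldn11, and Cldn11 and Opalin also differed by less than their SDs. Counts cover all exons of a gene, not the canonical transcript alone. All exons total 9745 bases for Mbp and 8974 for Mobp, beside 2155 and 1566 in the canonical transcripts, but 2824 beside 2782 for Mal. The order and the gaps therefore depend on the length chosen.

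Mbp was the steadiest of the 9 between oligodendrocyte libraries. It measured 12514, 11237, 13281 and 10579 CPM in control mice of pairs 1, 3, 5 and 6, and 10462, 14032, 12705 and 12488 CPM in their knockout partners. Its coefficient of variation over the 8 libraries was 10.6%, and that of Mobp was 11.2%. The other members varied by 22.5% (Ermn) to 39.2% (Opalin).

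Cnp, an enzyme of non-compact myelin, varied more. It measured 1146, 1170, 575 and 542 CPM in control mice of pairs 1, 3, 5 and 6, and 972, 990, 847 and 625.02 CPM in knockout mice of those pairs. The 4 libraries of pairs 1 and 3 held the highest Cnp levels, in both genotypes. Mag, the adhesion protein next to the axon, was likewise highest in those 4 libraries, with 369, 394, 212 and 141 CPM in control mice and 365, 362, 231 and 270 CPM in knockout mice. In the oligodendrocyte library of control mouse 6, 7 of the 9 members (Mog, Mag, Mobp, Cnp, Cldn11, Opalin and Ermn) were at their lowest, with Cldn11 at 59.5 CPM where the highest library, control 1, held 214 CPM.

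**Figure D1:**
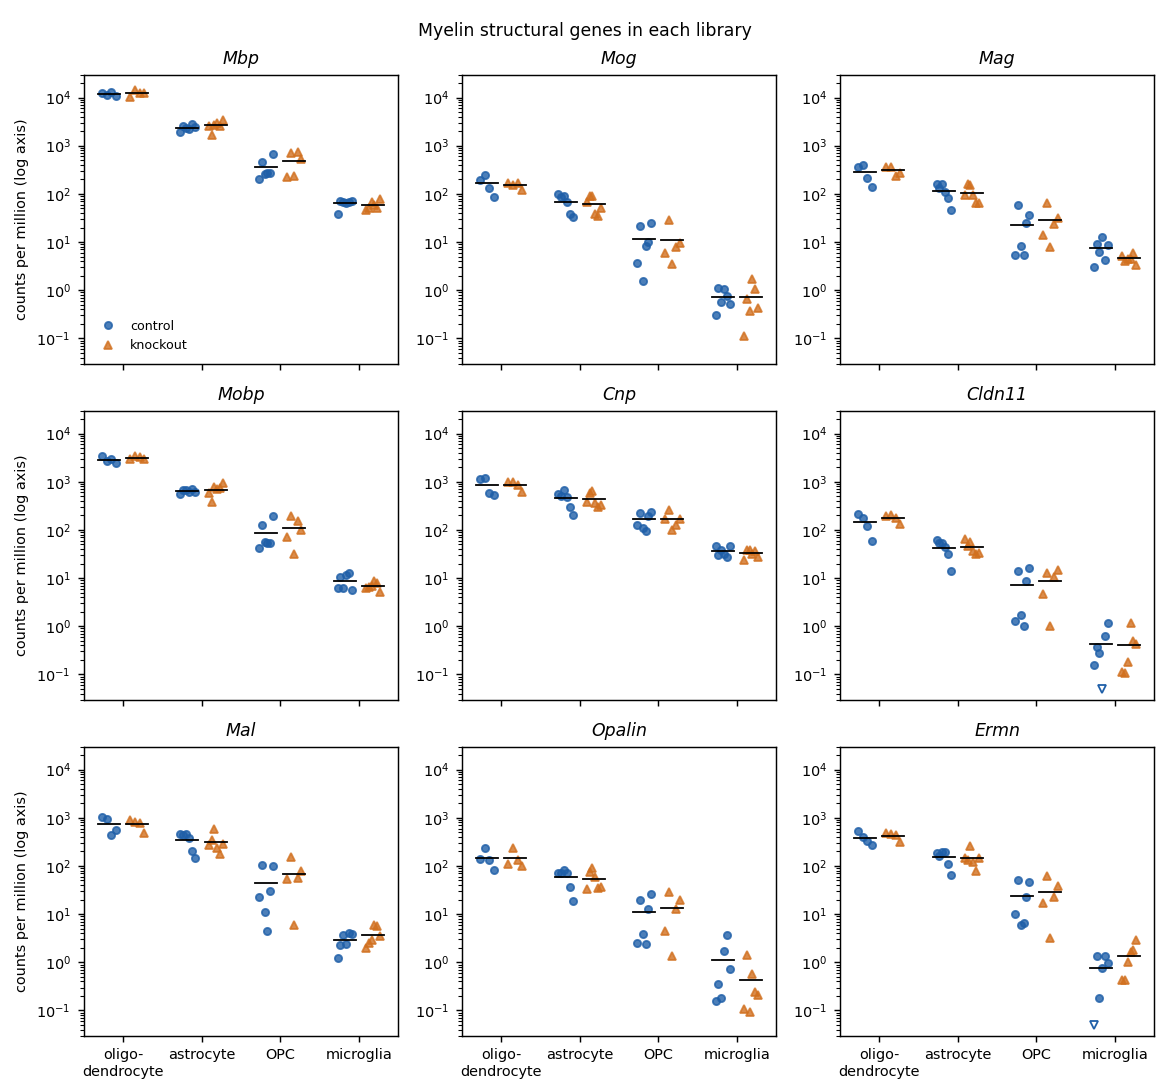
CPM on a log axis for each of the 9 genes in oligodendrocyte, astrocyte, OPC and microglia libraries. Each circle is a control and each triangle a knockout library, black lines are means, and open triangles at the foot mark a count of 0. Mbp falls from a mean of 12162 CPM in oligodendrocyte libraries to 2510 in astrocyte, 413 in OPC and 61.2 in microglia libraries, and control and knockout libraries overlap for each gene in each cell type.

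Astrocyte libraries held the next highest level of every member. Astrocytes do not make myelin, and in the panning order astrocytes were taken last, after the plates for microglia, OPCs and oligodendrocytes. The part of oligodendrocyte RNA in the astrocyte libraries was not tested. Mbp ran from 1629 to 3399 CPM over the 12 astrocyte libraries, with a median of 2567, and all of these lay below the lowest oligodendrocyte library. Cnp ran from 208 to 661 CPM (median 435), and Mal, a protein of lipid-rich membrane, from 148 to 599 CPM (median 320). The ranges of Cnp and Mal overlapped those of oligodendrocyte libraries. The same was true of Mog, Mag, Cldn11 and Opalin, while Mbp, Mobp and Ermn did not overlap. Of all 35365 genes with a count in these libraries, 1.29% lay wholly higher in oligodendrocytes.

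As a percent of the mean CPM in oligodendrocyte libraries, the median member stood at 37.5% ± 12.7 (SD, n = 12) in astrocyte libraries. Single astrocyte libraries ran from 20.01% (control 6) to 55.9% (knockout 3). Cnp stood highest at 51.7% ± 17.6, followed by Mal at 45.2% ± 18.5 and Mog at 41.2% ± 15.9. Mbp and Mobp stood lowest, at 20.6% ± 3.80 and 21.9% ± 4.41. The median was 26.7% when mitochondrially encoded genes were left out of the library size and 24.1% with TMM scaling over the 43 libraries.

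Every member was called higher in oligodendrocytes than in astrocytes in a joint fit of all 43 libraries with the mouse as a block (edgeR quasi-likelihood test, two-sided, Benjamini-Hochberg adjusted p under 0.05, TMM scaling). The call was made for 9 of 9 members, beside 24.9% of 19209 genes tested. The largest log2 fold change was that of Mbp at 3.01 ± 0.19 (SE, edgeR adjusted p = 3.9e-15), and the smallest that of Cnp at 1.63 ± 0.19 (edgeR adjusted p = 9.3e-09). The members' median was 2.18, beside -0.03 for all genes. Summed neuron markers ran from 403 to 1650 CPM in oligodendrocyte and from 135 to 292 CPM in astrocyte libraries, with 8 of 8 above 0 in every library of both. Summed OPC markers ran from 91.1 to 462 CPM and from 31.4 to 167 CPM, with 6 and 7 of 7 above 0 in every library. The part of such cells in the result was not tested.

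**Figure D2:**
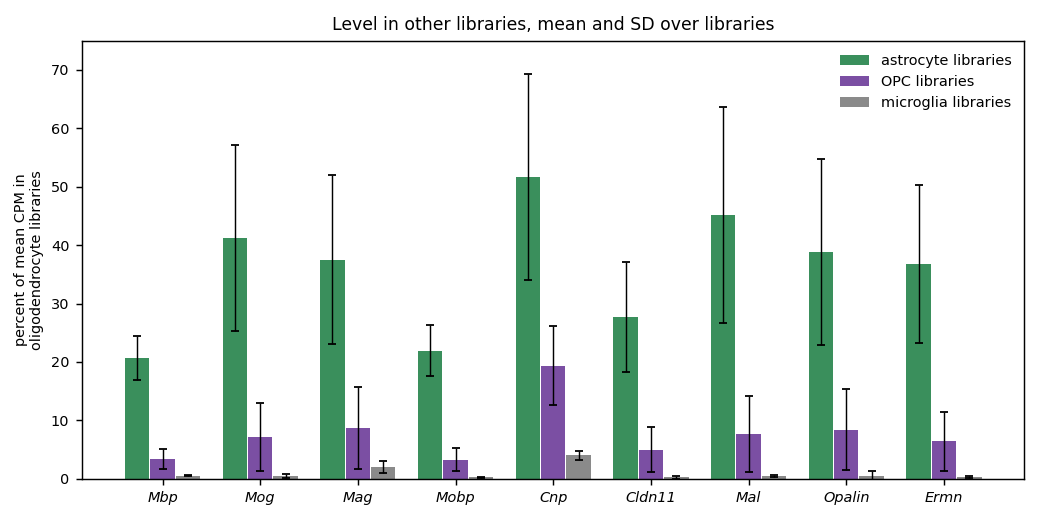
Mean CPM of each gene in astrocyte (n = 12), OPC (n = 11) and microglia (n = 12) libraries as a percent of its mean in the 8 oligodendrocyte libraries. Bars are means and error bars are SDs over libraries. Mbp and Mobp have the lowest bars in astrocyte libraries (20.6% and 21.9%) and Cnp the highest in all 3 cell types (51.7%, 19.4% and 4.03%).

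The members did not fall by the same factor from oligodendrocyte to astrocyte libraries. To compare them without the library size, the count of each of the other 8 was divided by that of Mbp in the same library (log2, 0.5 added to each count), and the libraries of the same mouse were compared. The reference was chosen after the values were seen. Mbp is the member that fell most, with the largest log2 fold change of oligodendrocytes against astrocytes in the joint fit (3.01). It also had the lowest level in astrocyte libraries as a percent of its oligodendrocyte level (20.6%). Against such a reference the mean ratios of the other 8 are set to rise. The exact p-values of these ratios are therefore no separate support for unequal falls. In the 8 mice with both libraries, the ratio of Cnp to Mbp was higher in the astrocyte library of 8 of 8 mice, by 1.17 ± 0.45 (SD) on the log2 scale, with differences from 0.66 to 1.78 (exact sign-flip permutation test, two-sided, p = 0.0078). Mal to Mbp was higher in 8 of 8 mice, by 0.97 ± 0.66 (exact p = 0.0078), and Mog to Mbp in 8 of 8, by 0.84 ± 0.56 (exact p = 0.0078). This is the smallest p that 8 mice can give. The 8 mice are 4 littermate pairs, however, and with the pair as the unit no p under 0.125 can be reached. In pair means Cnp, Mal, Mog, Mag, Opalin and Ermn to Mbp were higher in 4 of 4 pairs (exact p = 0.125 each), and Cldn11 and Mobp in 3 of 4 (exact p = 0.25). Ermn, Mag and Opalin to Mbp were higher by 0.69 ± 0.62 (6 of 8 mice, exact p = 0.031), 0.66 ± 0.58 (7 of 8, exact p = 0.023) and 0.62 ± 0.56 (7 of 8, exact p = 0.016).

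With mice as the unit, the ratios of Cldn11 and Mobp to Mbp missed an exact p under 0.05. With pairs as the unit no ratio can reach it. Cldn11, the tight junction claudin, differed by 0.31 ± 0.38 (5 of 8 mice, exact p = 0.062). Mobp, whose mRNA is carried into processes like that of Mbp, differed by 0.11 ± 0.18 (7 of 8 mice, exact p = 0.12). In 7 mice its ratio was higher in the astrocyte library, and in knockout mouse 1 it was lower by 0.33. The 8 p-values are given without adjustment, and they share the Mbp counts. Against the mean log2 count of all 9 members in place of Mbp, Cnp (8 of 8 mice) and Mal (7 of 8) stood higher in astrocyte libraries, by 0.57 ± 0.11 and 0.37 ± 0.34 (exact p = 0.0078 and 0.031). On that scale Mbp, Mobp and Cldn11 stood lower, by -0.60 ± 0.39, -0.48 ± 0.36 and -0.29 ± 0.22 (exact p = 0.0078, 0.0078 and 0.016), while Mog, Mag, Opalin and Ermn missed the threshold. Differences from the members' own mean balance out within each mouse, so some must stand lower where others stand higher. Mice are the unit here too, and 4 pairs cannot reach a p under 0.125.

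**Figure D3:**
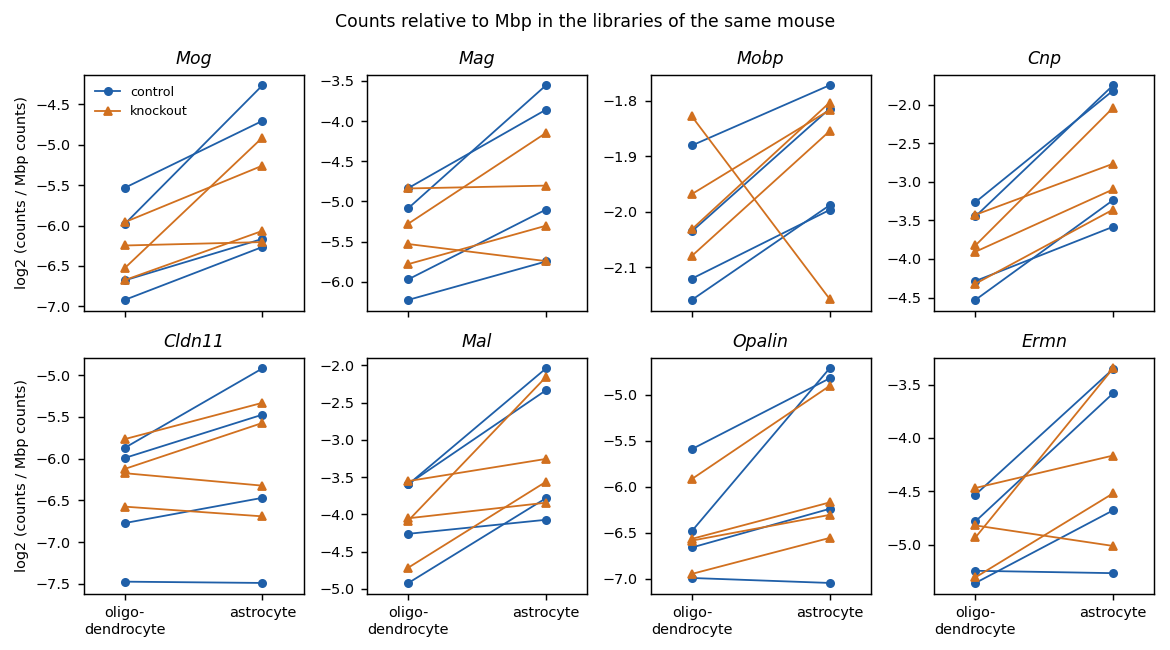
Log2 ratio of the counts of each of 8 genes to those of Mbp in the oligodendrocyte and astrocyte libraries of the same mouse. Each line is 1 of 8 mice (4 control, 4 knockout), and the vertical axes differ between panels. The lines of Mog, Cnp and Mal rise in 8 of 8 mice, and the panel of Mobp spans a much smaller range, with 1 knockout mouse falling by 0.33.

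OPC libraries held far lower levels, and for each member these varied more between libraries than in oligodendrocyte or astrocyte libraries. Mbp ran from 206 to 725 CPM over 11 libraries (median 273) and Mal from 4.47 to 154 CPM (median 53.0). Cldn11 ran from 0.993 to 16.3 CPM (median 8.58), on 10 to 340 counts. The spread of single members reached a coefficient of variation of 85.3% (Mal), while that of Cnp was 35.1%. The median member stood at 7.16% ± 5.67 (SD, n = 11) of its oligodendrocyte level. Single libraries ran from 1.04% (knockout 3) to 17.7% (knockout 2), and the control of pair 2 was the next highest, at 13.4%. The median was 4.71% when mitochondrially encoded genes were left out of the library size and 3.46% with TMM scaling.

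Cnp stood at 19.4% ± 6.79 of its oligodendrocyte level in OPC libraries, and the other 8 between 3.26% (Mobp) and 8.65% (Mag). Its ratio to Mbp was also higher in OPC than in astrocyte libraries, in 11 of 11 mice, by 1.29 ± 0.85 on the log2 scale (exact sign-flip permutation test, two-sided, p = 0.00098, the smallest that 11 mice can give). In means of the 6 littermate pairs it was higher in 6 of 6 (exact p = 0.031, the smallest that 6 pairs can give). For the other 7 members the exact p ran from 0.15 to 0.99. Cnp made up 4.76% ± 1.27 of the members' counts in oligodendrocyte, 10.2% ± 3.59 in astrocyte, 22.5% ± 6.52 in OPC and 30.2% ± 7.08 in microglia libraries. Exons of Dnajc7 cover 16.6% of the exonic bases of Cnp, and the part of Dnajc7 reads in these levels was not tested.

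All 9 members were called higher in oligodendrocytes than in OPCs, beside 14.9% of genes, with log2 fold changes from 3.44 (Cnp) to 6.22 (Mobp) and a median of 5.24, where the median over all genes was -0.26. All 9 were also called higher in astrocytes than in OPCs, beside 17.8% of genes, with a median of 3.14 (all genes -0.13). Astrocyte and OPC ranges did not overlap for 4 members, Mbp, Mog, Mobp and Ermn, beside 1.81% of 36914 genes. Genes listed for newly formed oligodendrocytes summed to 1236 to 1901 CPM in OPC libraries against 890 to 1983 CPM in oligodendrocyte libraries. Single genes led these sums, Gpr17 with a mean of 752 CPM in OPC and Bcas1 with 1020 CPM in oligodendrocyte libraries. Not all are particular to that stage: Itpr2 had a mean of 176 CPM in microglia and 46.1 CPM in oligodendrocyte libraries. Summed astrocyte markers ran from 2981 to 8213 CPM in OPC libraries. The part of newly formed oligodendrocytes or of astrocytes in the members' levels was not tested.

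Microglia libraries held the lowest levels, with the median member at 0.454% ± 0.158 (SD, n = 12) of its oligodendrocyte level. It was 0.234% with mitochondrially encoded genes left out of the library size and 0.229% with TMM scaling. Mbp was present in all 12, from 38.5 to 78.2 CPM (median 65.8), and Cnp from 23.6 to 45.5 CPM (median 34.4). Cnp stood at 4.03% ± 0.806 of its oligodendrocyte level and Mag at 2.04% ± 0.989, while the other 7 stood between 0.261% (Mobp) and 0.539% (Opalin). Cldn11 had a count of 0 in control 4, where up to 0.290 CPM (3 counts) cannot be told from 0, and Ermn had a count of 0 in control 1, where the limit was 0.462 CPM. These limits cover counting error only.

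All 9 members were called higher in each other cell type than in microglia: in oligodendrocytes (median log2 fold change 8.83, all genes -0.09) beside 33.5% of genes, in astrocytes (6.74, all genes 0.12) beside 37.9%, and in OPCs (3.69, all genes 0.18) beside 39.8%. Mog, Cldn11, Opalin and Ermn had means of 0.719, 0.422, 0.785 and 1.07 CPM in microglia. They passed the joint filter only through cell types where they are higher, so their calls against microglia are no separate support. Without the filter they were also called. OPC and microglia ranges did not overlap for 4 members, Mbp, Mobp, Cnp and Ermn, beside 11.3% of 36775 genes. The members' order of cell types was thus the same for every gene, but the steps were unequal. From OPCs to microglia Mag fell by 1.81 ± 0.35 (SE) in log2, and Ermn by 4.33 ± 0.44.

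Other genes of the myelin programme were read from lists by role, chosen with earlier results of these data known. Of 16 other myelin genes, 15 were called higher in oligodendrocytes than in astrocytes and 1, Omg, was called lower (median log2 fold change 1.99, all genes -0.03). Of all genes tested, 24.9% were called higher. Plekhb1 and Tspan2, the 2 most abundant of them, had means of 1324 and 517 CPM in oligodendrocyte, 499 and 170 CPM in astrocyte, and 225 and 118 CPM in OPC libraries. Against OPCs 11 of the 16 were called higher and 0 lower (median 2.87, all genes -0.26), beside 14.9% of genes called higher. These calls rest on TMM scaling. On the scale of CPM, single genes of this list stood at 9.13% to 285% of their oligodendrocyte level in OPC libraries. Some thus had a higher mean CPM in OPC libraries, such as Omg at 282 against 137 CPM. Of 10 other mature oligodendrocyte genes, led by Trf and Apod, 10 were called higher against astrocytes and 10 against OPCs (medians 1.99 and 4.16). The shares of all genes called higher were 24.9% and 14.9%. In OPC libraries the other myelin genes stood at a median 28.6% of their oligodendrocyte level and the other mature genes at 12.4%, beside 7.16% for the 9 members, all on the scale of CPM. In astrocyte libraries these medians were 40.5%, 42.4% and 37.5%.

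Genes of the earlier steps did not all share the members' order. Of 9 newly formed oligodendrocyte genes, 2 (Bcas1 and Enpp6) were called higher in oligodendrocytes than in OPCs and 3 (Gpr17, Itpr2 and Neu4) lower. Their median log2 fold change was -0.33, near the -0.26 of all genes, of which 14.9% were called higher. Gpr17, a receptor of differentiating precursors, had a mean of 122 CPM in oligodendrocyte and 752 CPM in OPC libraries. Of 8 genes for regulators of myelin genes and for RNA binding, 3 (Nkx6-2, Qk and Zfp536) were called higher than in OPCs and 3 (Olig1, Olig2 and Zfp488) lower. Their median was -0.35, also near that of all genes. The share of all genes called lower is not given here, so nothing is read from these counts about the lists as a whole. Qk, an RNA-binding protein gene, had means of 1076 CPM in oligodendrocyte, 1240 in astrocyte, 965 in OPC and 616 in microglia libraries, a far narrower span than any member.

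Outside these lists, 3683 protein-coding genes with at least 20 CPM in oligodendrocyte libraries were ranked by likeness to the members' mean profile. The measure was the root mean square difference in log2(CPM + 1), centred per gene, over the 8 groups of cell type and genotype. The 8 most like were Lpar1 (0.37), Septin4 (0.42), Dbndd2 (0.42), Prr18 (0.43), Nkain2 (0.56), Lgi3 (0.59), Pex5l (0.59) and St18 (0.61). Lpar1, a receptor for lysophosphatidic acid, had means of 129.8 CPM in oligodendrocyte, 33.7 in astrocyte, 8.58 in OPC and 0.956 in microglia libraries. The members themselves lay between 0.14 (Mog) and 0.89 (Cnp) from their own mean, and Cnp was the member least like it.

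No member was called by genotype in any of the 4 cell types. The libraries of a cell type were fitted by themselves, on terms for genotype and sex (edgeR quasi-likelihood test, two-sided). In oligodendrocytes 0 of 9 members were called, beside 0% of 13802 genes, and 0 of 9 had an unadjusted p under 0.05, beside 3.38%. Log2 fold changes of knockout against control ran from -0.02 (Mog) to 0.37 (Cldn11), with a median of 0.14 beside 0.00 for all genes. Mbp differed by -0.02 ± 0.14 (SE, edgeR adjusted p = 0.999) and was higher in the knockout mouse in 2 of 4 pairs. Cldn11 differed by 0.37 ± 0.29 (edgeR adjusted p = 0.998) and was higher in 3 of 4 pairs. DESeq2, with the same terms, also called 0 of 9, beside 0.705% of genes.

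In astrocytes 0 of 9 members were called, beside 0.00679% of 14725 genes, 0 of 9 at an unadjusted p under 0.05 beside 2.87%, and 0 of 9 by DESeq2 beside 0.00300%. The median log2 fold change was 0.08. Mbp had the largest, 0.27 ± 0.16 (SE, edgeR adjusted p = 1.00), and was higher in the knockout library in 4 of 6 pairs. In microglia 5 members passed the filter on low counts (Mbp, Mag, Mobp, Cnp and Mal). Of these 0 were called, beside 0.00667% of 15003 genes, with 0 at an unadjusted p under 0.05 beside 2.91%, and 0 of 9 by DESeq2 beside 0.00916%. Mag, at 3.08 to 12.97 CPM in control and 3.39 to 6.04 CPM in knockout libraries, had the largest difference, -0.61 ± 0.30 (SE, edgeR adjusted p = 0.999).

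OPC libraries gave the widest errors. Mbp measured 206, 449, 252, 272, 273 and 684 CPM in control mice of pairs 1 to 6, and 222, 697, 236, 725 and 520 CPM in knockout mice of pairs 1, 2, 3, 4 and 6. The groups overlapped, and both held low and high libraries. The log2 fold change was 0.48 ± 0.37 (SE, edgeR adjusted p = 1.00). Again 0 of 9 members were called, beside 0.00592% of 16882 genes, with 0 of 9 at an unadjusted p under 0.05 beside 4.02%, and 0 of 9 by DESeq2 beside 0.0149%. Without the filter on low counts, 1 of 9 was called, Mbp (0.49, edgeR adjusted p = 0.028), beside 0.266% of 33850 genes. Without knockout 4 the difference in Mbp was -0.00. Astrocyte markers were also higher in knockout OPC libraries, with a median log2 fold change of 0.59 and 6 of 8 at an unadjusted p under 0.05, and the part of such cells was not tested.

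**Figure D4:**
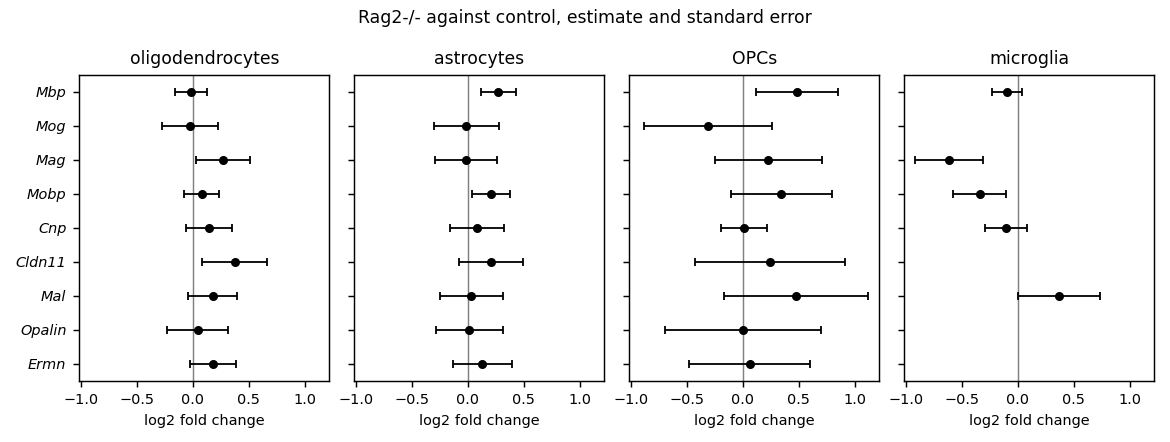
Log2 fold change of Rag2-/- against control libraries for each gene in the 4 cell types, from fits within each cell type. Points are estimates and bars standard errors; in microglia 4 genes were too low to be tested. Estimates in oligodendrocytes and astrocytes lie between -0.02 and 0.37, and bars are widest in OPCs, with SEs of up to 0.70.

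Whether the genotype effect differed between cell types was tested in the joint fit with the mouse as a block (edgeR, F test of 3 terms). For this 0 of 9 members were called, beside 0.0234% of 21368 genes, with 0 of 9 at an unadjusted p under 0.05 beside 6.70%. DESeq2 called 0 of 9, beside 0.382% of genes.

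For sex, the other term of the fits, no member was called in any cell type. In OPCs 0 of 9 were called by edgeR, beside 0.0296% of genes, and 5 of 9 had an unadjusted p under 0.05, beside 4.30%. All 9 estimates were higher in females, with a median log2 fold change of 1.26 beside -0.01 for all genes. Sex was largely tied to litter, since pairs 1, 3 and 4 were male and pairs 2 and 5 female. In pair 6, the 1 pair of mixed sex, the female knockout library lay below the male control library for 9 of 9 members, with Mog at 9.60 against 24.6 CPM. Litter and sex cannot be told apart in the other pairs, and sex and genotype cannot be told apart in pair 6. Mag measured 24.6 to 64.0 CPM in 4 female libraries (median 44.3) and 5.36 to 37.1 CPM in 7 male libraries (median 8.42). Most male libraries lay below all female ones. The sexes overlapped in part: the male control of pair 6, at 37.1 CPM, lay above 2 female libraries. The log2 difference was 1.61 ± 0.48 (SE, edgeR adjusted p = 0.999). Ermn, the actin-binding protein, measured 23.2 to 60.8 CPM in females (median 45.1) and 3.14 to 45.6 CPM in males (median 10.1), a difference of 1.47 ± 0.54 (edgeR adjusted p = 0.999). Mbp and Mobp had the smallest estimates, 0.30 ± 0.38 and 0.41 ± 0.46.

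The call by sex in OPCs depended on the setting. DESeq2 called 0 of 9 members, beside 0.0388% of genes. Without the filter on low counts, edgeR called 6 of 9 (Mog, Mag, Cnp, Mal, Opalin and Ermn), beside 0.213% of genes. Without pair 6, whose control is male and knockout female, it called 1 of 9, Mag (log2 difference 2.44, edgeR adjusted p = 0.048), beside 0.0415%. In the same libraries the median log2 difference was 0.47 for other mature oligodendrocyte genes, 0.37 for other myelin genes, 0.14 for newly formed oligodendrocyte genes, and -0.00 for OPC markers. Lists of other cell types had medians of -0.06 (astrocyte), -0.58 (microglia), 0.03 (neuron) and 0.20 (endothelial).

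In astrocytes the estimates pointed the other way, with 1 of 9 higher in females and a median of -0.35 beside -0.00 for all genes. None was called (0 of 9 beside 0.0407%), 0 of 9 had an unadjusted p under 0.05 beside 6.73%, and DESeq2 called 0 of 9 beside 0.0570%. The largest was Ermn at -0.51 ± 0.27 (SE), which was the 1 member that edgeR called without the filter (adjusted p = 0.031), beside 0.351% of 33626 genes. In the same libraries OPC markers had a median of -0.84, with 4 of 7 at an unadjusted p under 0.05, and microglia markers -0.77, with 4 of 8. Newly formed oligodendrocyte genes had a median of -0.51 (2 of 9), other mature oligodendrocyte genes -0.21 (0 of 10), other myelin genes -0.20 (2 of 16), neuron markers -0.30 (1 of 8) and astrocyte markers 0.09 (1 of 8). The part of such cells was not tested. Whether the sex differences in OPCs and astrocytes differ from each other was not tested.

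In oligodendrocytes 0 of 9 members were called by sex, beside 0.0362% of genes, and DESeq2 called 0 of 9 beside 1.45%. Mbp was the 1 of 9 with an unadjusted p under 0.05, beside 8.23%, and was higher in females by 0.41 ± 0.15 (SE, edgeR adjusted p = 0.51). It measured 12488 to 13281 CPM in the 3 female and 10462 to 14032 CPM in the 5 male libraries, so the groups overlapped. Neuron markers in these libraries had a median log2 difference of 0.98 between females and males, with 4 of 8 at an unadjusted p under 0.05. In microglia 0 of 5 members were called, beside 0.0467% of genes, 0 of 5 had an unadjusted p under 0.05 beside 3.92%, and DESeq2 called 0 of 8 with an adjusted p, beside 0.0336%.

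**Figure D5:**
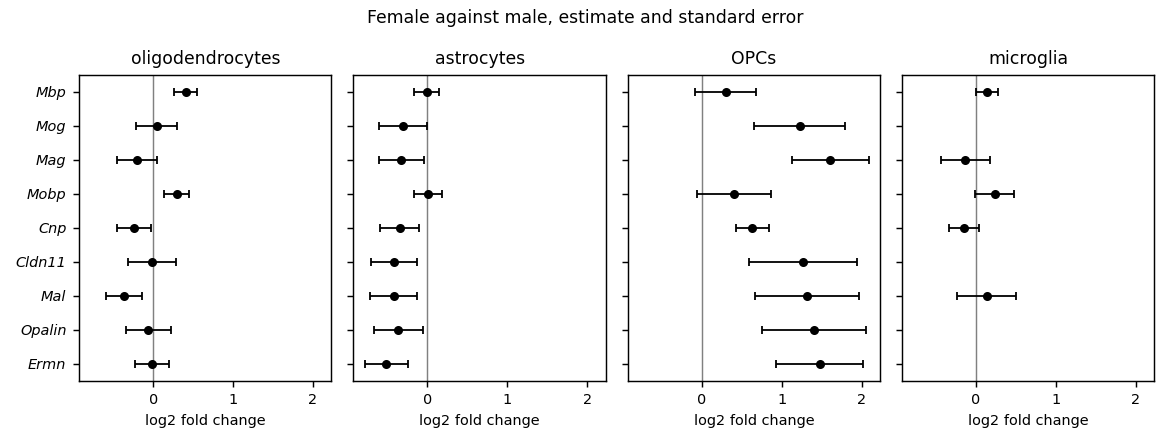
Log2 fold change of female against male libraries for each gene in the 4 cell types, from the same fits. Points are estimates and bars standard errors. In OPCs all 9 estimates are above 0, from 0.30 to 1.61, and in astrocytes they lie between -0.51 and 0.00, and no member was called in either.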

How the data were processed

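RNA of immunopanned cells was amplified (Ovation V2) and made into libraries with a kit that marks no strand. The authors aligned reads with STAR 2.7.8a to GRCm39 and counted them per gene with HTSeq, and the deposited values are raw counts. The labels and methods give no overlap mode. Every deposited column was mapped to a library, and counts that HTSeq assigned to no gene (33.5% to 52.0%) were left out.

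The 9 members and all gene lists were chosen with earlier results of these data known. Other genes are named where they are the 2 most abundant of a list in oligodendrocytes or were called, or are among the 8 most like the members. Genes were filtered with filterByExpr (minimum count 10, total 15) and tested with edgeR 4.0.16 (glmQLFit, TMM, Benjamini-Hochberg adjusted p under 0.05) in R 4.3.3, with sex and genotype as terms, or with the mouse as a block between cell types. DESeq2 1.42.0 was an alternative; others were no filter, DESeq2 size factors, mitochondrial genes left out, heterozygous controls alone, pair 6 left out, 1 genotype alone, no mouse block, and each library left out (in fits across cell types and for percent levels, each of the 8 oligodendrocyte libraries). The ratios to Mbp were added after the values were seen. Scripts were tested on simulated data. Counting limits (3 counts) cover counting error only.

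Numbers mark littermate pairs in the study's methods. Deviations from the group mean correlated on average by 0.111 within oligodendrocyte pairs and -0.036 between them, by 0.089 and -0.018 in OPCs, 0.135 and -0.026 in astrocytes, and 0.087 and -0.018 in microglia.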

Additional observations from a re-analysis of the deposited data

Results flagged for a closer look

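In 4 of 72 groups of libraries tested (9 members, 4 cell types, both genotypes) 1 library stood apart from the rest of its group by Dixon's test at the 95% level, where chance gives about 1 in 20. Mbp measured 38.5 CPM in microglia of control 1, and the other 5 controls lay between 64.7 and 72.0 CPM. Mog measured 28.05 CPM in OPCs of knockout 2, with the other 4 between 3.42 and 9.60 CPM, and this library also had the highest median member of the 11. Cldn11 measured 1.16 CPM in microglia of knockout 4, with the other 5 between 0.108 and 0.490 CPM, all on few counts. Ermn measured 316 CPM in oligodendrocytes of knockout 6, with the other 3 between 450.1 and 473 CPM.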

How the results depend on the processing

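All 9 members stayed called higher in each of the 6 comparisons of cell types under every alternative run, which left out single oligodendrocyte libraries but no single library of the other cell types. An uncalled fold change counts here as reversed where its sign turned and it moved by more than its SE. Calls of members moved in 4 cases, as given with the results: without the filter, 1 by genotype and 6 by sex in OPCs and 1 by sex in astrocytes, and without pair 6, 1 by sex in OPCs. The replicate block of littermate pairs called 0 members by genotype in each cell type and changed no other call of a member.

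Counts over all genes moved most without the filter and with DESeq2. For genotype they went from 0 to 14 and 206 in oligodendrocytes, from 1 to 90 and 5 in OPCs, from 1 to 9 and 3 in microglia, and, without the filter, from 1 to 30 in astrocytes. For sex they went from 5 to 99 and 422 in oligodendrocytes, from 5 to 72 and 13 in OPCs, from 6 to 118 and 19 in astrocytes (12 without pair 6), and from 7 to 25 and 11 in microglia. For a genotype effect that differs between cell types they went from 5 to 60 and 150. Oligodendrocytes against OPCs gave 7387 genes, 4693 in control and 4591 in knockout libraries alone, and astrocytes against OPCs 8288, with 4584 in knockout libraries alone, where fewer libraries were fitted. Leaving out 1 library gave 3 to 5 genes by sex in oligodendrocytes, 1 to 2 by genotype in microglia, and 2 (without oligodendrocyte control 6) to 18 (without oligodendrocyte knockout 3) for the difference between cell types. The other causes were not tested.

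Among single members, genotype in OPCs turned for Mog with heterozygous controls alone (0.76). Sex in astrocytes turned for Mobp without pair 6 (-0.22). With 1 library left out, Opalin by genotype in oligodendrocytes ran from -0.27 (without knockout 3) to 0.23, the Mbp log2 fold change, genotype in OPCs, from -0.0021 (without knockout 4) to 0.81, Mog by genotype in OPCs from -0.68 to 0.32 (without control 6), and Mobp by sex in astrocytes from -0.19 (without knockout 6) to 0.16. None of these was called. As a percent of the oligodendrocyte level, TMM scaling gave a median member of 24.1% in astrocyte and 0.229% in microglia libraries, and leaving out mitochondrial genes gave 0.234% in microglia. With the mean of the members as reference in place of Mbp, 2 members stood higher in astrocyte libraries in place of 6. With each mouse left out of the ratios to Mbp, 5 to 6 of 8 passed the threshold. These counts of ratios take mice as the unit, and with littermate pairs none can pass. Low counts limit Cldn11, Ermn, Mog and Opalin in microglia, where edgeR with its filter did not test them by genotype or sex.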
